A study of Homo sapiens with 6 samples.

Results

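Kinetochore and spindle checkpoint genes were compared between A375 cells that had received a POLK sgRNA and cells that had received a non-targeting control sgRNA. The set holds every centromere protein gene named CENP plus a single letter, 21 in all, and 28 named genes of the outer kinetochore, the spindle checkpoint, the chromosomal passenger complex and mitotic entry. These 49 genes were picked by symbol from the 16934 genes measured. A375 is an established human melanoma line with an activating BRAF mutation, and both groups had been through CRISPR-Cas9 editing with the Alt-R system. POLK encodes polymerase kappa, a translesion enzyme of low fidelity. Each group held 3 RNA-seq libraries, and the labels do not say whether these came from separate cultures. All p-values measure the spread between these libraries only, which may be technical. An effect of losing POLK and a difference between the edited populations cannot be told apart.

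The kinetochore is built on centromeric chromatin marked by the histone variant CENP-A. A constitutive network of CENP proteins (the CCAN) binds that chromatin, and the NDC80 complex at its outer face grips spindle microtubules. Kinetochores without microtubules recruit the checkpoint proteins of the MAD and BUB families and the kinase TTK, which together hold back CDC20, the activator of the anaphase-promoting complex (APC/C). Transcripts of most of these genes rise as cells go from G2 into mitosis and are repressed in quiescent cells, through promoter elements called CCAAT boxes and CHR elements. In RNA from a bulk culture, fewer cells in a phase and less RNA per cell in that phase cannot be told apart.

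Libraries held 42852645 to 56891905 counts, and the counts of 2 libraries differed far more across groups (chi-square over its degrees of freedom 60.6 to 73.1, 9 pairs) than within one (1.95 to 3.90, 6 pairs). POLK itself (ENSG00000122008, chromosome 5, 75511756 to 75601144, plus strand, GRCh38) was lower with its sgRNA. Its level was 23.4, 24.0 and 22.4 counts per 1000000 (CPM, on library sizes scaled by the TMM method) in control libraries 1, 2 and 3 and 19.2, 17.2 and 18.1 CPM in POLK sgRNA libraries 1, 2 and 3. The groups did not overlap, and 78.1% of the control level was left (log2 fold change −0.36, SE 0.05). An RNA level does not measure how many alleles were edited. Of 8 melanocyte and melanoma markers 7 were tested, 5 of them higher and none lower. The summed level of all 8 was 1165 to 1188 CPM in control and 1302 to 1362 CPM in POLK sgRNA libraries. SOX10 was at 1060.1 ± 12.5 and 1155 ± 28.99 CPM (SD, n = 3) with control and POLK sgRNA. The pigment genes PMEL, MLANA, TYR and DCT were all under 1 CPM on average in both groups. DCT was uneven in control libraries 1, 2 and 3, at 1.49, 0.04 and 0.02 CPM. TYR was at 0.44 CPM in control library 1 and at 0 in every other library. Summed leukocyte markers were at 17.6 to 18.0 CPM in control and 58.1 to 60.3 CPM in POLK sgRNA libraries, mainly CD68 and LYZ, with PTPRC and CD3E under 0.1 CPM on average. Of the 5 leukocyte markers measured 3 were tested, 2 of them higher and 1 lower. Summed fibroblast markers (6, of which 5 tested, 3 higher and 1 lower) were at 15.5 to 16.0 and 26.9 to 27.1 CPM. Epithelial ones (4, of which 3 tested and 1 higher) were at 4.44 to 5.15 and 7.27 to 8.94 CPM. Endothelial ones (3, all tested, 2 higher and 1 lower) were at 1.59 to 2.03 and 2.503 to 2.80 CPM. No listed marker in the table was at 0 in every library, and the part of these lists in the results below was not tested.

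All 49 genes passed the filter on low counts, with 53 to 22541 counts per gene and library. With the POLK sgRNA, 14 of the 49 were higher (28.6%) and 14 were lower (28.6%), where 32.8% of all 13930 genes tested were higher and 31.6% lower (edgeR's quasi-likelihood F test, p adjusted by Benjamini-Hochberg across all 13930 genes, threshold 0.05). Together 28 of 49 (57.1%) passed, against a background of 64.3%, so the share called was near the background and a little under it. The groups did not overlap in 29 of the 49 genes, 13 above and 16 below the control range (59.2%, background 67.7%). The median log2 fold change was −0.01, and it was 0.01 over all genes tested. Sizes were small, with log2 fold changes within 0.32 of 0 in 44 of 49 genes (89.8%) against 68.3% of all genes tested and 73.4% of the 11692 genes in the members' range of levels. When edgeR's glmTreat asked for log2 fold changes past 0.32 and not only past 0, CENPB, KNTC1 and TPX2 were higher and BUB1 lower, where 11.9% of all genes were higher and 8.79% lower by that rule. GENCODE 29 places another protein-coding gene over part of 17 of the 49 genes, 10 of them called (CENPU, CENPX, CENPN, CENPA, CENPT, CENPO, CENPS, NUF2, CCNA2 and PLK1). These are overlaps of whole gene spans, introns included, and exons were not compared. Where exons on opposite strands do overlap, counts made without strand cannot tell the genes apart.

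**Figure D1:**
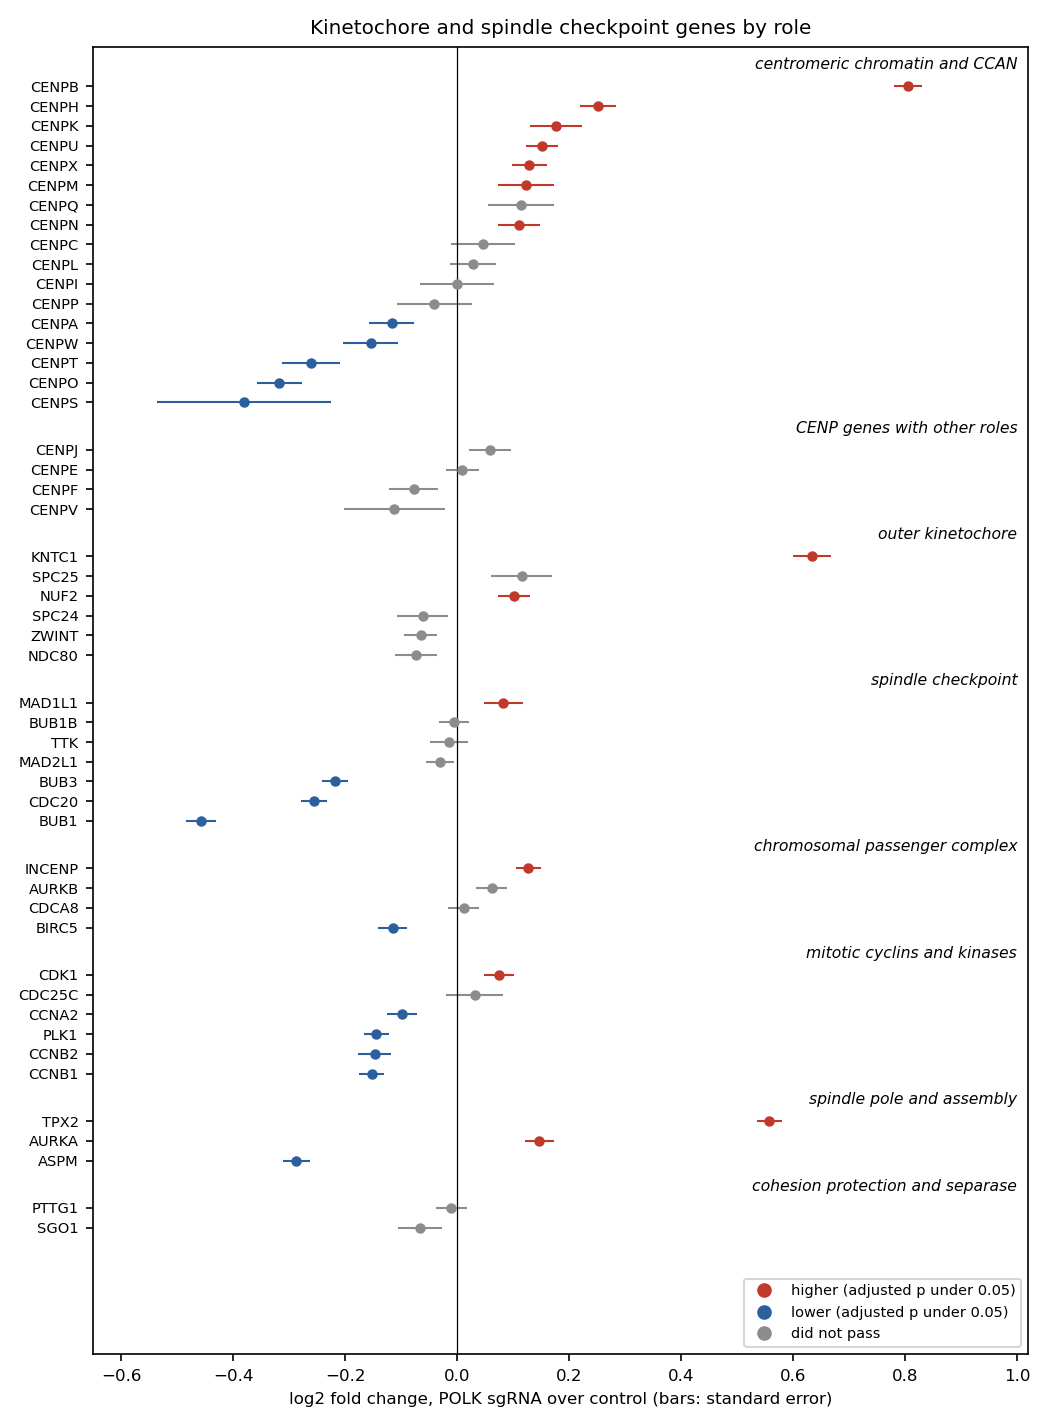
Log2 fold change of each of the 49 genes, POLK sgRNA over control, grouped by role (x axis, log2; bars are standard errors; colour shows the call). CENPB, KNTC1 and TPX2 lie furthest to the right and BUB1 furthest to the left, and 44 genes lie between −0.32 and 0.32.

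Shared promoter elements are a known feature of late cell cycle genes. RefSeq promoter windows (GRCh38.p14, 250 bases before to 50 after a start) were matched by symbol for 39 of the 49 genes, which had 48 windows, and not for AURKA, BIRC5, BUB3, CENPH, CENPJ, CENPL, CENPM, KNTC1, TPX2 and TTK. The CHR element TTTGAA, on either strand, was in 22 of 48 windows (45.8%) and in 15.2% of all 35116 windows in the table. A CCAAT box, on either strand, was in 33 of 48 (68.8%) and in 34.6% of all windows, and both motifs were in 18 of 48 (37.5%) against 5.90%. The motifs shared a base in 1 of the 48 windows and in 42 of all windows, and a match describes letters in a window, not a bound site. At least 1 window held a CHR element in 6 of 12 matched genes that fell, 4 of 9 that rose and 9 of 18 that did not pass, and a CCAAT box in 9 of 12, 6 of 9 and 13 of 18.

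Printed below are the 250 bases before the start of 3 genes that were lower and 2 that were higher, 5′ to 3′ on the gene's strand, with CHR elements and CCAAT boxes of either strand in capitals. They are shown because genes with a CCAAT box, and genes with both elements, differed in direction. CENPK has 3 CCAAT boxes and no CHR element. PLK1 and CCNB2 have a CHR element whose first base lies 29 bases before the start, and INCENP, which was higher, has such an element 10 bases before the start and 3 CCAAT boxes.
PLK1 (chr16:23678639-23678888, plus strand, lower): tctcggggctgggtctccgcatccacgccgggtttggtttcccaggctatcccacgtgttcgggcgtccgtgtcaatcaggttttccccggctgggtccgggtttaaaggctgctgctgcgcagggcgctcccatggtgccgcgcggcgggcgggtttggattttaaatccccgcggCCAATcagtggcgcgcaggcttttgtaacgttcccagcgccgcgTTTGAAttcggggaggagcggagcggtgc
CCNB2 (chr15:59104896-59105145, plus strand, lower): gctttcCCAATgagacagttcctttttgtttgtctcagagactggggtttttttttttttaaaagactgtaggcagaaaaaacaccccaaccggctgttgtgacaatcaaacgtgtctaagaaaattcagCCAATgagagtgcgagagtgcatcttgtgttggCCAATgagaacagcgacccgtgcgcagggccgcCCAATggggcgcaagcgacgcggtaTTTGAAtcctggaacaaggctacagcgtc
ASPM (chr1:197146670-197146919, minus strand, lower): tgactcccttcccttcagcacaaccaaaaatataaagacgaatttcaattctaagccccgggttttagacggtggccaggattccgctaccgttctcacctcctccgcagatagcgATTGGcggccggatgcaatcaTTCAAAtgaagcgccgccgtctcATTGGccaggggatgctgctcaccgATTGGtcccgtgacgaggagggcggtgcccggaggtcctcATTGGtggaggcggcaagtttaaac
INCENP (chr11:62123761-62124010, plus strand, higher): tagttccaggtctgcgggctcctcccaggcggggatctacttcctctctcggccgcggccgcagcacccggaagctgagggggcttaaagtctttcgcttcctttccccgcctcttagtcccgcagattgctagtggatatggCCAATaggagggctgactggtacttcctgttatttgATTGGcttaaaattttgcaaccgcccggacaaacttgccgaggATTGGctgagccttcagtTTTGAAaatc
CENPK (chr5:65563169-65563418, minus strand, higher): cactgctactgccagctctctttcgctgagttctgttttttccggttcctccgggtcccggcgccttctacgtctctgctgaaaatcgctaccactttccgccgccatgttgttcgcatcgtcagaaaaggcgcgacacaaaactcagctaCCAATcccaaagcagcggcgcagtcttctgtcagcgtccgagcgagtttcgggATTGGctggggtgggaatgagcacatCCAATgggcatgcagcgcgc

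Among genes of centromeric chromatin and the CCAN, 7 of 17 rose, 5 fell and 5 did not pass, with a median log2 fold change of 0.05. That is 70.6% called, against a background of 64.3%. CENPB, a protein that binds a sequence box in alpha satellite DNA, changed most of all 49 genes. Its level was 176, 172 and 174 CPM in the control libraries and 295, 304 and 314 CPM in the POLK sgRNA libraries. All POLK sgRNA libraries were well above all controls, with a log2 fold change of 0.805 (SE 0.02; edgeR's quasi-likelihood F test, adjusted p = 2.49e-24). CENPH, which with CENPK and CENPM belongs to the CENP-H/I/K/M subcomplex of the CCAN, was at 53.4, 51.9 and 50.1 CPM and then 61.4, 60.9 and 62.6 CPM, a log2 fold change of 0.25 (SE 0.03). The groups did not overlap for CENPH. CENPK rose by 0.18 (SE 0.05) and CENPM by 0.12 (SE 0.05), while CENPI was at 9.24 ± 0.56 and 9.28 ± 0.60 CPM (SD, n = 3) and did not pass. The rise of CENPM, whose groups overlap, lost its call on leaving out control library 1 or 2 or POLK sgRNA library 2 or 3 (edgeR's adjusted p 0.070 to 0.18) and with DESeq2 (0.10).

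The other CCAN subcomplexes also held members moving apart. CENPU rose from 69.3, 67.7 and 68.9 CPM to 77.3, 76.3 and 75.1 CPM, with a log2 fold change of 0.15 (SE 0.03). CENPO, which sits in the same CENP-O/P/Q/R/U subcomplex, fell from 34.0, 35.4 and 35.8 CPM to 29.2, 28.3 and 26.8 CPM, with a log2 fold change of −0.32 (SE 0.04; edgeR's adjusted p = 1.96e-08). Neither gene's groups overlap. CENPQ and CENPP of the same subcomplex did not pass, at 0.11 (SE 0.06) and −0.04 (SE 0.07). CENPT and CENPW, histone-fold partners that link the CCAN to the outer kinetochore, were both lower, at −0.26 (SE 0.05) and −0.15 (SE 0.05). CENPX, another histone-fold protein, rose by 0.13 (SE 0.03). Its partner CENPS fell from 1.49, 1.45 and 1.56 CPM to 1.19, 1.18 and 1.08 CPM. CENPS overlaps the read-through gene CENPS-CORT, so its value is uncertain, and its call was lost with DESeq2 (adjusted p = 0.11) and without control library 3 or POLK sgRNA library 2 or 3 (0.053 to 0.092 in edgeR).

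CENPA, the centromeric histone itself, was at 31.3, 33.2 and 30.7 CPM in control and 28.6, 30.0 and 29.5 CPM in POLK sgRNA libraries. That is a log2 fold change of −0.12 (SE 0.04), which did not pass without control library 2 or POLK sgRNA library 1 (edgeR's adjusted p = 0.11 and 0.059). CENPN, which reads the CENP-A nucleosome, was higher by 0.11 (SE 0.04), a call also lost without control library 2 or POLK sgRNA library 1 (edgeR's adjusted p = 0.064 and 0.077). CENPC, the scaffold that bridges CENP-A to the outer kinetochore, and CENPL did not pass, at 0.05 (SE 0.06) and 0.03 (SE 0.04). None of the 4 CENP genes with other roles passed, where 64.3% of all genes tested did. The mitotic kinesin gene CENPE was nearly level, at 62.9 ± 0.49 and 63.3 ± 0.31 CPM (SD, n = 3). CENPF was at 411, 413 and 418 CPM in control and spread over 391.7, 419 and 366 CPM in POLK sgRNA libraries, so its groups overlap. The centriole gene CENPJ and CENPV were at 0.06 (SE 0.04) and −0.11 (SE 0.09).

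In the outer kinetochore, 2 of 6 genes rose and none fell (33.3% called, background 64.3%). KNTC1, the rod subunit of the RZZ complex that brings MAD1 and dynein to the kinetochore, was at 42.6, 40.7 and 38.9 CPM in control and 62.7, 63.8 and 63.1 CPM in POLK sgRNA libraries. All POLK sgRNA libraries lay above the controls, with a log2 fold change of 0.63 (SE 0.03). Of the NDC80 complex, the 4-part microtubule coupler, NUF2 rose from 72.9, 71.8 and 70.1 CPM to 77.3, 77.6 and 75.5 CPM, without overlap. Its partner NDC80 did not pass, at 36.4 ± 0.50 and 34.6 ± 1.11 CPM (SD, n = 3), nor did SPC25 at 0.12 (SE 0.05) or SPC24 at −0.06 (SE 0.05). Per kilobase of exon, the NDC80 complex genes stood in the order NUF2 (35.4 CPM per kb), SPC24 (28.8), NDC80 (16.8) and SPC25 (9.34) in control cells and in the same order with the POLK sgRNA (37.97, 27.7, 15.9 and 10.1). ZWINT, which links KNL1 to the RZZ complex, was at −0.07 (SE 0.03; edgeR's adjusted p = 0.0508). It passed without control library 1 (edgeR's adjusted p = 0.006) and with DESeq2 size factors (0.033).

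Of the 7 spindle checkpoint genes, 3 fell, 1 rose and 3 did not pass (57.1% called, background 64.3%). BUB1, the kinase that marks centromeric chromatin for shugoshin and recruits other checkpoint proteins, fell furthest of all 49 genes. It was at 104.9, 104.1 and 104.2 CPM in control and 76.4, 75.8 and 75.9 CPM in POLK sgRNA libraries, which leaves 72.8% of the control level. This is a log2 fold change of −0.46 (SE 0.03; edgeR's adjusted p = 1.52e-16), and the groups lie far apart. BUB3, the adaptor that carries BUB1 and BUB1B to the kinetochore, fell from 254, 256 and 251 CPM to 222, 213 and 219 CPM, a log2 fold change of −0.22 (SE 0.02). CDC20, the target of the checkpoint, fell from 312, 309.7 and 301 CPM to 257, 255 and 261 CPM, a log2 fold change of −0.26 (SE 0.02). Neither BUB3 nor CDC20 overlapped between groups. The components that are assembled into the inhibitor of CDC20 other than BUB3 were close to their control level: BUB1B, which encodes BUBR1, was at −0.01 (SE 0.03) and MAD2L1 at −0.03 (SE 0.03). The kinase gene TTK was at −0.02 (SE 0.03), and none of these 3 genes passed. MAD1L1 rose by 0.08 (SE 0.03), its groups overlap, and the call was lost on leaving out control library 1 or 2 or POLK sgRNA library 1 or 2 (edgeR's adjusted p 0.061 to 0.29), with DESeq2 size factors (0.054) and with DESeq2 (0.11).

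The chromosomal passenger complex, which corrects faulty microtubule attachments, moved by little. Of its 4 genes 1 rose, 1 fell and 2 did not pass (50% called, background 64.3%). INCENP, its scaffold, rose from 242, 242 and 244 CPM to 259.6, 266 and 269 CPM. BIRC5, which encodes survivin and places the complex on the centromere, fell from 123, 126 and 125 CPM to 113, 117 and 115 CPM. Both were without overlap, at log2 fold changes of 0.13 (SE 0.02) and −0.12 (SE 0.03). The kinase gene AURKB was at 0.06 (SE 0.03; edgeR's adjusted p = 0.0543) and passed without POLK sgRNA library 1 (edgeR's adjusted p = 0.0029). CDCA8, which encodes borealin, was at 0.01 (SE 0.03) and did not pass.

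Mitotic cyclins and PLK1 were lower, while their kinase partner was not. Of 6 mitotic cyclin and kinase genes, 4 fell, 1 rose and 1 did not pass (83.3% called, background 64.3%). Their median log2 fold change was −0.12. CCNB1, the main activator of CDK1 at mitotic entry, was at 291, 296 and 292 CPM in control and 265, 265 and 261 CPM in POLK sgRNA libraries. PLK1, the polo-like kinase gene, was at 255, 261 and 257 CPM and then 233, 233 and 235 CPM. CCNB2 was at 97.4, 98.6 and 98.8 CPM and then 87.3, 85.9 and 93.1 CPM. All 3 genes were lower without overlap, at 89.95%, 90.5% and 90.3% of control and log2 fold changes of −0.15 (SE 0.02), −0.14 (SE 0.02) and −0.15 (SE 0.03). CCNA2, which acts in S phase and G2, fell to 93.3% of control (log2 fold change −0.10, SE 0.03). CDK1 rose by 0.07 (SE 0.03), from 88.5, 88.8 and 88.6 CPM to 92.3, 95.4 and 92.5 CPM. Its call was lost without control library 1 or 2 or POLK sgRNA library 2 (edgeR's adjusted p 0.054 to 0.095) and with DESeq2 (0.057). CDC25C, a phosphatase that activates CDK1, was at 0.03 (SE 0.05) and did not pass.

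Spindle assembly genes split. TPX2, which activates Aurora A on spindle microtubules, rose from 213, 211 and 212 CPM to 317, 309 and 309.9 CPM, a log2 fold change of 0.56 (SE 0.02). AURKA, the gene of that kinase, rose by 0.15 (SE 0.03), from 135 ± 3.0 to 149 ± 3.5 CPM (SD, n = 3). ASPM, a spindle pole protein whose loss causes microcephaly, fell from 286, 280.0 and 274 CPM to 229, 235 and 224 CPM, a log2 fold change of −0.29 (SE 0.02). None of the 3 overlapped between groups, and neither did 67.7% of all genes tested. SGO1, the protector of centromeric cohesion, and PTTG1, which encodes securin, did not pass, at −0.07 (SE 0.04) and −0.01 (SE 0.03).

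**Figure D2:**
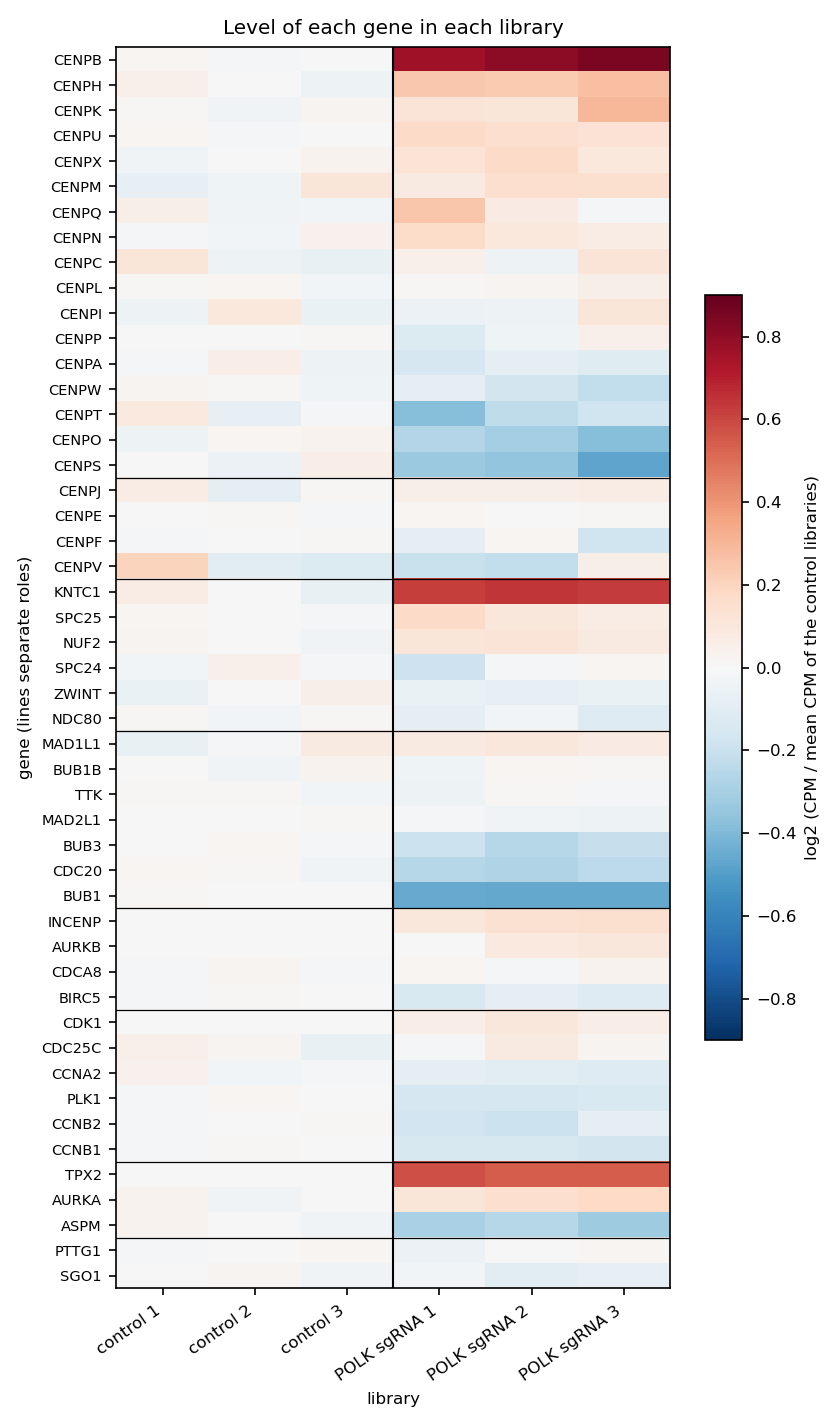
Level of each gene in each library as log2 of its CPM over the mean of the control libraries (colour), with genes in rows by role and the 6 libraries in columns. The POLK sgRNA columns are uniformly raised for CENPB, KNTC1 and TPX2 and uniformly lowered for BUB1, CDC20, BUB3 and ASPM, while CENPF and SPC24 differ between libraries of that group.

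**Figure D3:**
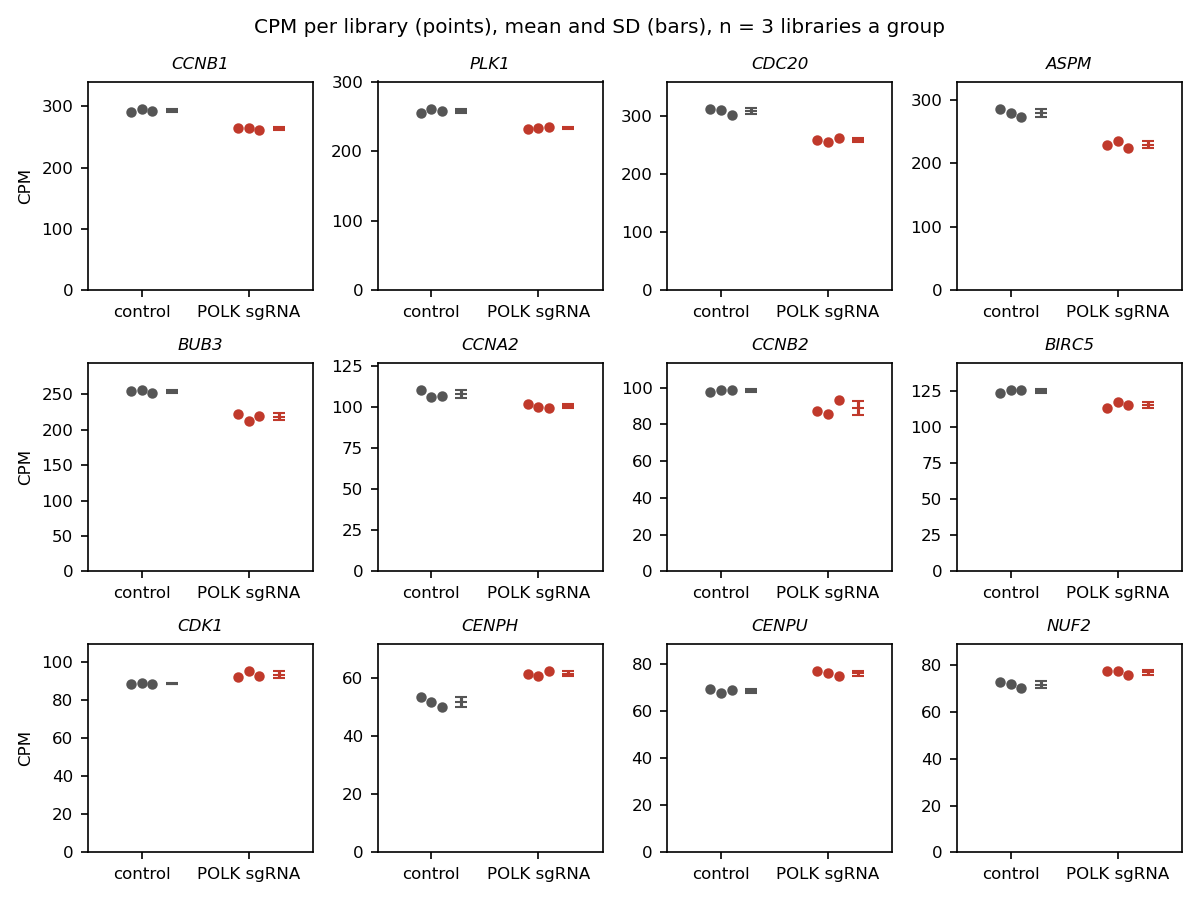
CPM in each library (points) with the mean and SD beside them (n = 3 libraries a group, y axes from 0) for 12 genes. CCNB1, PLK1, CDC20, ASPM, BUB3, CCNA2, CCNB2 and BIRC5 are lower and CDK1, CENPH, CENPU and NUF2 are higher with the POLK sgRNA, in each case without overlap. The 12 genes were picked by hand, and all of them had passed. Over the whole set 59.2% of genes did not overlap, against 67.7% of all genes tested.

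The largest differences went with chromosomal position. For each gene, the median log2 fold change was taken over the nearest 20 tested genes on each side with a mean of at least 1 CPM (fewer near a chromosome end), the 49 genes left out. For CENPB (chromosome 20, 3783851 to 3786690, minus strand) that median was 0.59, and 37 of 40 neighbours were higher. For TPX2 (chromosome 20, 31739271 to 31801805, plus strand) it was 0.65, and 39 of 40 were higher. For KNTC1 (chromosome 12, 122527246 to 122626396, plus strand) it was 0.53, and all 40 were higher. Each of these 3 genes moved in the direction of its neighbours, CENPB by 0.22 more than their median on the log2 scale. BUB1 (chromosome 2, 110637698 to 110678114, minus strand) had a neighbour median of −0.32, with 31 of 40 lower, CENPT (chromosome 16) one of −0.44 and CENPO and CENPA (both chromosome 2) −0.26 and −0.24. INCENP (chromosome 11) and AURKA (chromosome 20) had neighbour medians of 0.11 and 0.18.

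In all, 10 of the 49 genes had a neighbour median at least 0.1 from 0. All 5 on the raised side rose, against 32.8% of all genes tested. On the lowered side 4 of 5 fell, against 31.6% of all genes tested, and CENPN (chromosome 16, neighbour median −0.14) rose. The share among all genes in such neighbourhoods was not taken. Of the other 39 genes 8 rose and 10 fell, 46.2% called against the background of 64.3%, and 38 of the 39 had a log2 fold change under 0.32, CENPS being the exception. Across the 49 genes the log2 fold change went with the neighbour median at a Pearson r of 0.76 and a Spearman rho of 0.24. Over the 39 genes alone both were −0.26, but these were selected for neighbour medians near 0, which limits any correlation. The positive values over all 49 genes depend on the 10. These are correlations across genes of the same libraries, genes close together share neighbours, and no p is given.

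**Figure D4:**
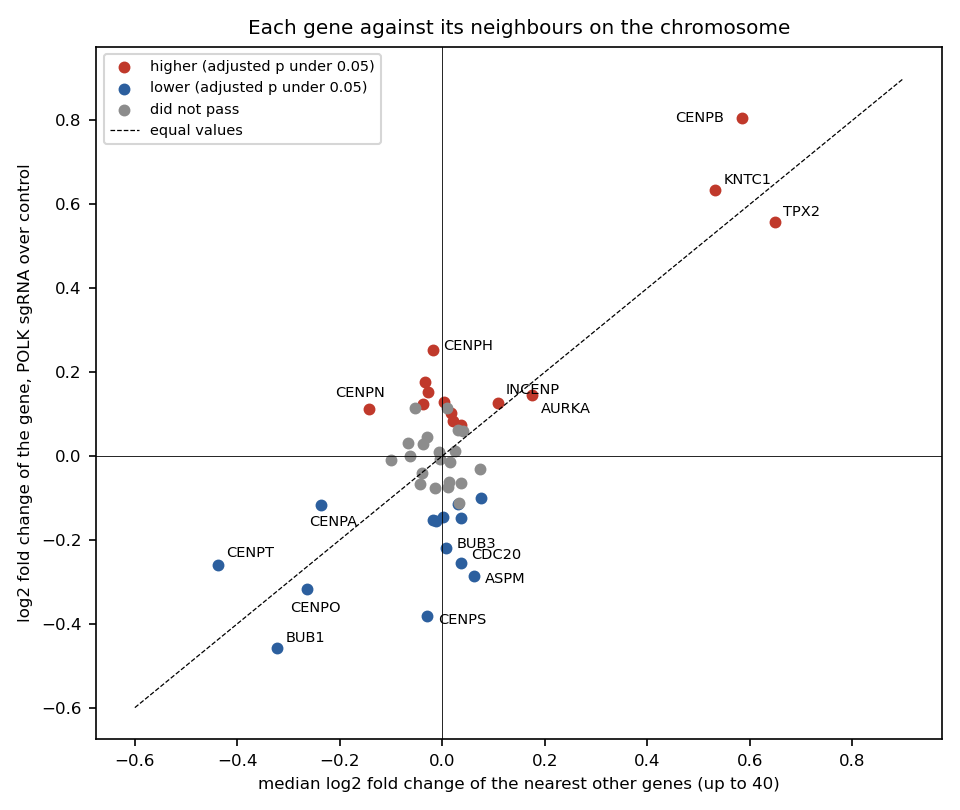
Log2 fold change of each gene (y axis) against the median log2 fold change of up to 40 nearest other genes (x axis), with colour for the call and a dashed line of equal values. CENPB, KNTC1 and TPX2 lie at the upper right near the line and BUB1, CENPO and CENPT at the lower left, while CDC20, ASPM and BUB3 fall below 0 at a neighbour median near 0.

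Genes that fell with neighbours near 0 were CDC20 (neighbour median 0.04), ASPM (0.06), BUB3 (0.01), PLK1 (0.0017), CCNB1 (−0.02), CCNB2 (0.04), CCNA2 (0.08), BIRC5 (0.03), CENPW (−0.01) and CENPS (−0.03). Those that rose with neighbours near 0 were CENPH (−0.02), CENPK (−0.03), CENPU (−0.03), CENPX (0.0036), CENPM (−0.04), NUF2 (0.02), MAD1L1 (0.02) and CDK1 (0.04). CCNB1 and CENPH are themselves neighbours on the plus strand of chromosome 5 (69167010 to 69178245 and 69189548 to 69210357), 11302 bases apart, and moved in opposite directions. Their ratio of counts, which does not depend on how libraries are scaled, was 0.183, 0.176 and 0.172 CENPH counts per CCNB1 count in control and 0.232, 0.230 and 0.240 in POLK sgRNA libraries. The ratio was higher in every POLK sgRNA library than in any control.

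Other pairs with a shared task, chosen after their values were seen, were compared the same way. CDK1 counts per CCNB1 count were 0.303 ± 0.002 in control and 0.355 ± 0.006 in POLK sgRNA libraries (SD, n = 3), without overlap. BUB1 counts per BUB1B count were 0.957 ± 0.021 and 0.700 ± 0.018, BIRC5 per INCENP 0.514 ± 0.004 and 0.435 ± 0.006, MAD2L1 per CDC20 0.378 ± 0.009 and 0.441 ± 0.008, and NUF2 per NDC80 1.97 ± 0.05 and 2.22 ± 0.05. Of 11 ratios, with CENPH per CCNB1 counted among them, 10 did not overlap between groups, which is a description of pairs picked for their values. CENPW per CENPT, at 0.796 ± 0.042 and 0.858 ± 0.104, overlapped. Ratios of counts carry the genes' lengths and do not give RNA molecules per molecule.

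Ordered by level per kilobase of exon in control cells, CDC20 (168 CPM per kb), CCNB1 (135) and PLK1 (116) led the 49 genes, and with the POLK sgRNA they stood at 141, 121 and 105 CPM per kb. CENPB moved from 61.3 to 107 CPM per kb, which put it between CCNB1 and PLK1 with the POLK sgRNA, and TPX2 from 58.9 to 86.6. At the low end stood CENPC (2.11), CENPS (1.28) and CENPP (0.914 CPM per kb). The span of CENPP overlaps those of the genes ASPN, ECM2, IPPK, NOL8, OGN and OMD. Counts without strand are uncertain there if exons overlap. The spread between libraries was small, with a median coefficient of variation over the 49 genes of 1.96% in control and 2.35% in POLK sgRNA libraries, and CENPV had the largest in both (12.9% and 10.8%).

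Of 109 other genes of the same processes, listed in 9 groups, 34 rose, 36 fell and 39 did not pass (64.2% called, background 64.3%), with a median log2 fold change of 0.0013. Their neighbour medians were taken as above, except that each of these genes was counted among its own neighbours. One list holds the MIS12 complex, KNL1, RZZ partners and the SKA complex, which join the genes above in the outer kinetochore. Of its 12 genes 8 fell and 2 rose (83.3% called, background 64.3%), with a median of −0.10. BOD1, a regulator of mitotic phosphatase activity, fell from 73.4 to 59.7 CPM and SKA2 from 85.6 to 73.6 CPM, both with neighbour medians within 0.1 of 0. The MIS12 complex gene DSN1 rose by 0.39 (SE 0.03) at a neighbour median of 0.21, and SKA1 by 0.19 (SE 0.05). The other MIS12 complex genes, named after their values were seen, did not rise with DSN1. PMF1 and NSL1 were lower, at −0.37 (SE 0.05) and −0.09 (SE 0.04), and MIS12 did not pass, at 0.09 (SE 0.04). In the list for CENP-A loading, ITGB3BP, which encodes CENP-R, rose by 0.16, and HJURP, the CENP-A chaperone, fell by 0.11.

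Among 20 genes of the APC/C and its regulators 6 rose and 5 fell (55% called, background 64.3%). FZR1, which encodes the late mitotic and G1 activator CDH1, fell from 86.2 ± 2.1 to 56.0 ± 1.8 CPM (SD, n = 3), a log2 fold change of −0.62 (SE 0.03), at a neighbour median of −0.03. ANAPC5 and ANAPC7 rose by 0.69 and 0.54 in raised neighbourhoods of chromosome 12 (0.52 and 0.55), and ANAPC1 fell by 0.37 in a lowered one of chromosome 2 (−0.34). Of 15 cohesin and separase genes 6 rose and 5 fell (73.3% called, background 64.3%). Leading the rises were separase (ESPL1), at 0.69 with a neighbour median of 0.50, and SMC1A at 0.16 with a neighbour median of 0.18. WAPL and STAG2 led the falls, at −0.12 each. Of 10 genes that control CDK1 3 rose and 3 fell (60% called, background 64.3%). CDC25B, a CDK1-activating phosphatase, rose from 159 to 274 CPM at a neighbour median of 0.59, ENSA rose by 0.19, and CKS1B and PKMYT1 fell by 0.11 each. WEE1, named after its values were seen, fell further, at −0.24 (SE 0.06) with a neighbour median of 0.0056.

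Of 22 transcription factors of cell cycle genes 10 rose (45.5%, background 32.8%) and 5 fell (22.7%, background 31.6%), with a median of 0.12. Named after their values were seen, E2F7, NFYB and RBL1 rose at neighbour medians of 0.69, 0.59 and 0.23. E2F8, RB1, RBL2 and TFDP2, named likewise, rose at neighbour medians within 0.1 of 0. E2F1 rose from 33.6 ± 0.66 to 71.9 ± 5.3 CPM (SD, n = 3) at a neighbour median of 0.56. LIN9, a core subunit of the complexes that bind CHR elements, rose from 16.1 to 23.3 CPM at a neighbour median of −0.03. RBBP4 of the same complexes fell from 247 to 178 CPM at −0.03, and E2F4 fell from 215 to 169.6 CPM at −0.39. FOXM1 and MYBL2, which drive late cell cycle genes and were named after their values were seen, were at −0.19 (SE 0.03) and 0.18 (SE 0.02), with neighbour medians of −0.01 and 0.19. Of 10 condensin and mitotic chromosome genes 5 fell and 1 rose (60% called, background 64.3%). Those that fell include NCAPH (−0.32, neighbour median −0.27) and NCAPG2 (−0.17), and NCAPD3 rose (0.09). The proliferation marker MKI67, also named afterwards, was at 434 ± 8.8 and 435 ± 36 CPM (SD, n = 3) and did not pass. NEK2, a centrosome kinase gene, rose by 0.10. Of 13 S phase genes 3 rose and 4 fell (53.8% called, background 64.3%). Those that rose include PCNA (0.48, neighbour median 0.63) and MCM2 (0.10). Those that fell include CCNE1 (−0.39) and MCM6 (−0.18, neighbour median −0.37).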

How the data were processed

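The values deposited by the authors are unnormalized whole-number counts, 1 row per gene and 1 column per library, for 6 libraries. The submitters' processing notes name the build GRCh38 and the tools FastQC, Trimmomatic, STAR and DESeq2. How reads were counted, on which annotation, and all tool versions: not given in the sources used here. Per the labels' protocols, mRNA libraries came from a TruSeq RNA V2 kit, and that chemistry keeps no strand information.

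The low-count filter was filterByExpr in edgeR (count 10, total 15) and left 13930 of 16934 genes. Library sizes were scaled by TMM (factors 0.991 to 1.007), and 3 control and 3 POLK sgRNA libraries were compared with the quasi-likelihood F test of edgeR 4.0.16 in R 4.3.3 (two-sided, robust, no covariates), adjusted over all genes tested. The fit was tested on simulated data. Each standard error was derived as |log2 fold change| divided by √F. CPM use TMM-scaled library sizes. Positions and exon lengths came from GENCODE 29, on the same build, and promoters from RefSeq. Values of every library are given mainly for the 3 genes with the smallest p in each role, and partner genes are the 2 called genes with the smallest p in each direction of a group, of which 1 is not reported here. The genes and lists were chosen with earlier results of these data known. Alternatives were DESeq2 1.42.0 and its size factors, library size alone, no filter, a mean of at least 1 CPM, limma-voom (limma 3.58.1), glmTreat, the replicate number as a block, each library left out, subtraction of neighbour medians and, added after seeing the data, the genes outside shifted neighbourhoods.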

Additional observations from a re-analysis of the deposited data

How the results depend on the processing

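Among the 49 genes, the counts of 14 higher and 14 lower stayed within 1.5 times under every alternative but glmTreat against a log2 fold change of 0.32 (3 higher, 1 lower, and 1653 and 1224 over all genes, 10 and 2 over partner genes), which asks for a larger change, and the removal of the 10 genes in shifted neighbourhoods (8 higher, 10 lower). Leaving out each library in turn gave 10 to 15 higher and 13 to 15 lower. DESeq2 called 24 of the same 28 genes (without CDK1, CENPM, CENPS and MAD1L1) and limma-voom all 28 plus CENPF. The median log2 fold change of the 49 genes was −0.0127 with DESeq2 or its size factors, 0.0097 with library size alone, −0.0022 with no filter, −0.0001 after subtracting neighbour medians and −0.0108 without the 10 genes, and −0.0168 to 0.0104 on leaving out a library, so its sign is not fixed. Over all genes it was 0.0017 with DESeq2 size factors, 0.0018 with DESeq2, 0.024 with library size alone, 0.0103 with no filter, 0.0062 at a mean of at least 1 CPM and 0.0042 to 0.0104 on leaving out a library. Over partner genes it was 0.017 with library size alone and −0.0129 to 0.0153 on leaving out a library. Genes that did not pass changed sign near 0. With library size alone these were BUB1B (0.0097), TTK (0.0007) and PTTG1 (0.005). On leaving out a library, values ran from −0.0259 to 0.0132 for BUB1B, −0.0306 to 0.0011 for TTK, −0.0257 to 0.0104 for PTTG1, −0.0825 to 0.0054 for CENPP, −0.0001 to 0.0135 for CENPE, −0.1017 to 0.0022 for SPC24, −0.0027 to 0.0227 for CDCA8 and −0.0055 to 0.0558 for CDC25C. Calls gained were CENPF and NDC80 without POLK sgRNA library 2, CENPQ, SPC24 and SPC25 without POLK sgRNA library 3, AURKB without POLK sgRNA library 1, with library size alone or with no filter, SPC25 with library size alone, and ZWINT without control library 1, with DESeq2 size factors or at a mean of at least 1 CPM. The cause was not tested. With the replicate number as a block, 14 genes were higher and 14 lower, the same 28 genes. Libraries with the same number did not deviate together (correlations of −0.062 to −0.014 over the 3 pairs). Pairs with different numbers had correlations of −0.014 to 0.058. These correlations run over many genes and cannot show a shared batch that touches few of them. Depth limits CENPS most, at 53 to 79 counts a library.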
